A study of Mus musculus with 6 samples.

Results

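The genes described here are 9 genes of liver-secreted regulators: *Fgf21*, *Angptl4*, *Gdf15*, *Igfbp1*, *Igfbp2*, *Fst*, *Lect2*, *Ahsg* and *Fetub*. They were chosen by symbol as hormones and carriers of the fasting or metabolic response, and all 9 were among the 16123 genes of the table of liver expression by genotype. RNAseq was carried out on 6 liver RNA pools from male mice, which entered the study at the age of 2 months, then ate a purified chow diet for 4 weeks and were fasted for 16 h before sacrifice. The WT group was 3 pools of C57BL/6Rj mice and the KO group was 3 pools of the strain C57BL/6JRj-*Txndc5*<em2Mdnp>/Ciba, which lacks exon 3 of *Txndc5* in every tissue and descends from 1 founder made with CRISPR/Cas9. According to the methods of the study each pool combined the RNA of 3 mice, although its results speak of larger numbers of animals behind the pools, and differences between single animals were averaged within a pool. *Txndc5* encodes a protein disulfide isomerase of the endoplasmic reticulum, the compartment through which all of these proteins pass on their way out of the hepatocyte. The question of the comparison was how its absence changed the hepatic transcriptome.

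Hepatokines are proteins that the liver releases to act on other organs. During a fast, fatty acids activate the nuclear receptor PPARα in hepatocytes, which drives *Fgf21* and *Angptl4*, while the fall of insulin frees the transcription factor FOXO1, which drives *Igfbp1*. The transcription factor ATF4, the effector of the integrated stress response, is another activator of *Fgf21* and *Gdf15*. *Ahsg* and *Fetub* encode fetuin-A and fetuin-B, abundant plasma proteins of the cystatin superfamily that the liver makes in the fed and the fasted state alike. The cellular component terms deposited with the table named an extracellular location for all 9 genes, and for 18.6% of all 16123 genes.

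The promoters of *Igfbp1* and *Fgf21* are shown because they hold the letters of elements that link these genes to fasting and stress signals. Both sequences are the 250 bases before the RefSeq start of transcription in build GRCm38.p6, 5′ to 3′ on the strand of the gene, with the matches in capitals. In *Igfbp1* (chr11:7197537-7197786, plus strand) the capitals mark the insulin response letters CAAAACA, and CAAAATA read on the opposite strand. In *Fgf21* (chr7:45615491-45615740, minus strand) they mark TGATGNAA, the composite letters that ATF4 binds with C/EBP proteins, also on the opposite strand.
Igfbp1: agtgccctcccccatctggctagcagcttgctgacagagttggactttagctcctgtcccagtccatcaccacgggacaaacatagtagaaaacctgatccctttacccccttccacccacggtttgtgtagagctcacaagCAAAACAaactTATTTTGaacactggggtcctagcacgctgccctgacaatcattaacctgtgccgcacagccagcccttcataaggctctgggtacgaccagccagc
Fgf21: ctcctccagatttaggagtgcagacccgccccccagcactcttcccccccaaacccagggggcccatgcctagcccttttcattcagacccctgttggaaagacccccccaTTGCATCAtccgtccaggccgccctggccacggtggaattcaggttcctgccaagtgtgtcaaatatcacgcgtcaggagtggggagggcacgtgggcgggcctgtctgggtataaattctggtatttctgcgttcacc
The matches of *Igfbp1* began 108 and 97 bases before the start, and that of *Fgf21* began 139 bases before it. On either strand, CAAAACA was found in 5.56% of 32851 promoter windows of the same length, CAAAATA in 3.95% and TGATGNAA in 3.45%. The reference held 10 windows for 7 of the genes and no entry for *Angptl4* and *Fst*. The FOXO letters GTAAACA, present in 3.17% of all windows, were found in 1 window of *Fetub*. The cAMP response letters TGACGTCA (1.55% of all windows) and an exact PPAR direct repeat (0.0335%) were found in none of the 10. Such a match is a description of letters and not evidence of a bound site.

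The 6 libraries had 44040160 to 46050030 clean reads, of which 91.6% to 93.7% were mapped. The targeted gene was checked first: the deposited value of *Txndc5* was 2697 normalized reads in WT and 90.8 in KO, 29.7-fold lower in KO. A normalized read is a read divided by the size factor of its library, which corrects for depth, and the table gave 1 value per genotype and gene. In weakly expressed genes, the WT and KO values mostly lay nearer together than the means of the libraries. In 3306 weakly expressed genes whose reads per library could be worked out from the table, the log2 ratio of the genotype values was nearer 0 than that of the library means in 97.9%. Among those with a log2 ratio of means beyond 0.3 in size, the median share kept was 64.7% for summed normalized reads of 60 to 100 and 80.1% for sums of 200 to 400. Of the genes described here, only *Fst* could be checked in this way. The genotype values are therefore descriptions without a replicate error, and a gene was counted as past the fold when they differed by more than 1.5-fold. In the recovered libraries, 1 of each genotype stood apart from the other 4, namely the WT and the KO library with the largest size factors (1.22 and 1.31). The first principal component of 3307 genes, with 42.9% of their variance, separated these 2 libraries from the rest, and the genotypes overlapped on it.

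The 9 genes spanned a 27591-fold range of level per kilobase in WT (plot of levels). *Ahsg* ranked 9 of all 16123 genes by normalized reads per kilobase and *Igfbp2* ranked 50, whereas *Fst* ranked 10315. Per kilobase of transcript, *Ahsg* had 200304 normalized reads in WT, *Igfbp2* 43979, *Fetub* 14444, *Angptl4* 3101 and *Igfbp1* 1252. *Lect2* followed with 924, *Fgf21* with 609, *Gdf15* with 127 and *Fst* with 7.26. The order was the same in KO at all 9 positions, and no spread was available to say which neighbours in it differ. Together the 9 genes held 1.90% of all normalized reads, of which *Ahsg* alone held 1.46%.

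**Figure D1:**
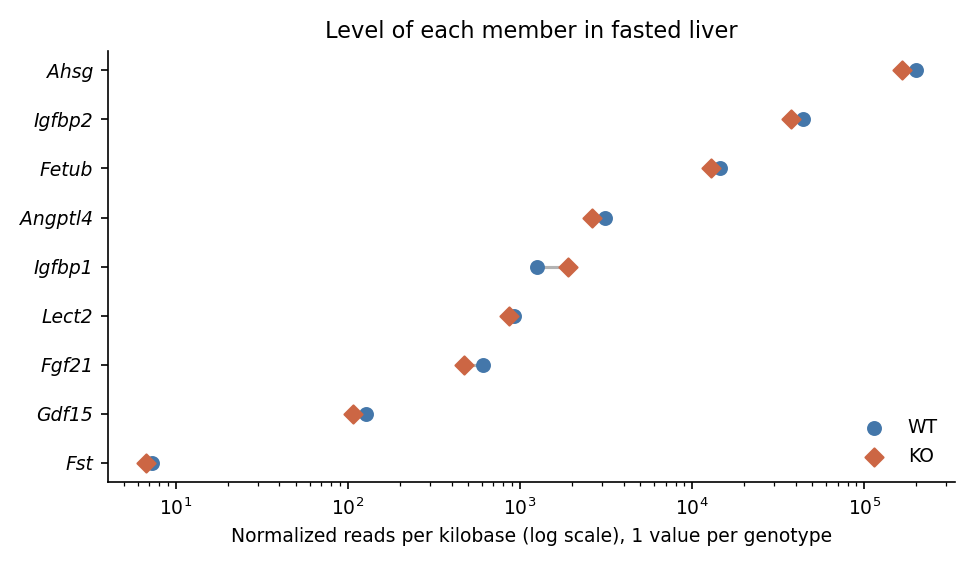
Normalized reads per kilobase of transcript (log axis) of the 9 genes, with 1 WT value (circle) and 1 KO value (diamond) per gene and no error, since the table gives 1 value per genotype. The genes keep their order from *Fst* (7.26 in WT) to *Ahsg* (200304 in WT), and *Igfbp1* is the gene whose KO value lies to the right of its WT value.

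Of the 9 genes, 8 had a lower value in KO and 1, *Igfbp1*, had a higher one. A lower KO value was found in 57.5% of the 14106 genes averaging 1 normalized read or more. The median log2 ratio of KO over WT was -0.23 over the 9 genes and -0.05 over the 14106, and the 9 ratios ran from -0.36 to 0.60. Past 1.5-fold stood 1 of the 9 genes in the direction of a higher KO value, as did 2.01% of the 14106 genes, and 0 of the 9 in the direction of a lower value, as did 5.92% (plot of ratios against level). Most of the 9 genes were abundant, and among the 1765 genes averaging 1000 or more, to which 5 of them belong, 0.737% stood past 1.5-fold higher and 1.13% lower. The median log2 ratio of those abundant genes was -0.04. Within the 14106 genes, a ratio below that of *Fgf21* was found in 15.0%, below that of *Ahsg* in 21.8%, below that of *Gdf15* in 23.9%, below that of *Angptl4* in 24.8% and below that of *Igfbp2* in 25.3%. The same share was 33.3% for *Fetub*, 40.6% for *Fst* and 43.3% for *Lect2*, and each of these 8 genes had at least 15.0% of the measured genes below it.

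**Figure D2:**
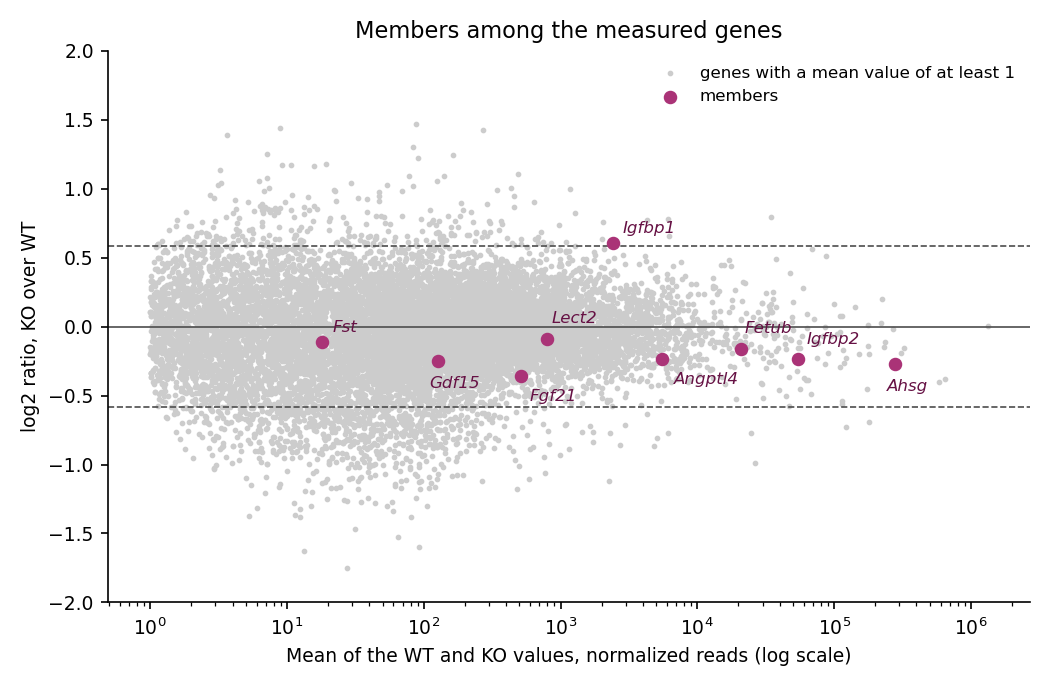
The log2 ratio of KO over WT against the mean of both genotype values (log axis, normalized reads) for 14102 genes in grey and the 9 genes in purple, without the 4 genes beyond a log2 ratio of 2 in size. Dashed lines mark 1.5-fold; *Igfbp1* (0.60) lies just above the upper line and the other 8 genes lie between 0 and the lower line.

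*Igfbp1* encodes insulin-like growth factor binding protein 1, which binds IGF-1 and IGF-2 in plasma and rises when insulin is low. Its value was 1905 normalized reads in WT and 2893 in KO, 1.52-fold higher in KO, just past the 1.5-fold mark. Of the 14106 genes, 98.2% had a lower log2 ratio than *Igfbp1*. The gene lies at chr11:7197782-7202546 on the plus strand (GRCm38, GENCODE M21), with 4 exons and no overlapping gene. Its neighbour *Igfbp3*, which encodes the main IGF carrier of plasma, lies on the opposite strand with its 3′ end 3.54 kb beyond that of *Igfbp1* and had 170 normalized reads in WT and 146 in KO (log2 ratio -0.23). The next measured gene on the other side, *Adcy1* (adenylate cyclase 1), lies 19.3 kb away. It was singled out after its values were seen, as the 1 of 16 neighbouring genes past 1.5-fold, with a log2 ratio of genotype values of -1.06. In the recovered libraries *Adcy1* had 22.9, 22.7 and 24.5 normalized reads in the WT libraries and 15.2, 2.90 and 4.52 in the KO libraries, and the groups did not overlap. Lack of overlap with lower KO libraries was found in 2.63% of 3307 genes, and with higher KO libraries in 3.08%. The limma adjusted p of *Adcy1* was 0.999, and the exact permutation p was 0.1, the smallest that 3 libraries against 3 allow.

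*Igfbp2* encodes the related carrier that the liver secretes in much larger amounts. It had 59019 normalized reads in WT and 50218 in KO, a change of -14.9%, so that the 2 binding proteins stood on opposite sides of 0. *Igfbp2* occupies chr1:72824503-72852474 on the plus strand with 4 exons, and *Igfbp5* lies 5.46 kb beyond its end with a log2 ratio of -0.05. Of the 14106 genes, 2.01% stood past 1.5-fold higher and 5.92% lower, the shares to set beside every list and marker count below. In the list of the IGF axis, which holds the growth hormone receptor, its signalling and the other carriers, 0 of 17 measured genes stood past 1.5-fold higher and 1 lower, with a median log2 ratio of -0.05. That gene was *Socs2*, a growth hormone target that restrains the receptor, with 265 normalized reads in WT and 125 in KO, or -1.08 on the log2 scale. *Igf1* itself, the hormone that these carriers bind, had 8200 in WT and 6824 in KO (log2 ratio -0.26). *Igfbp4*, the most abundant gene of the list, had 48342 in WT and 50765 in KO. The recovered libraries allowed a view of the spread for *Igf1r*, the IGF-1 receptor, with a mean of 22.5 ± 3.18 normalized reads in WT and 21.8 ± 1.65 in KO (SD, n = 3 libraries).

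The genes that insulin, glucagon and FOXO1 control are the pathway in which *Igfbp1* is usually placed. Of its 25 measured genes, 2 stood past 1.5-fold higher in KO and 1 lower, and the median log2 ratio was 0.06. The higher pair were *Sik1*, a kinase gene induced by glucagon through cAMP, with 310 normalized reads in WT and 600 in KO, and *Irs2*, the insulin receptor substrate induced in fasting, with 226 and 381. The lower gene was *Creb1*, the cAMP response factor, with genotype values of 51.3 and 33.3. Its libraries overlapped: the WT libraries had 131, 21.6 and 14.7 normalized reads and the KO libraries 45.7, 9.65 and 31.6, so that the difference rests on the WT library of largest size factor. The gluconeogenic genes *Pck1* and *G6pc*, which FOXO1 also drives, had log2 ratios of 0.28 and 0.45 and did not reach 1.5-fold. *Pck1* was the most abundant gene of the list, with 53229 normalized reads in WT and 64671 in KO.

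*Fgf21* encodes the fasting hormone that signals through FGF receptors and the co-receptor β-Klotho. Its value was 577 normalized reads in WT and 449 in KO, a change of -22.1%, and its log2 ratio of -0.36 was the lowest of the 9. It is a compact gene of 3 exons at chr7:45613886-45615490 on the minus strand. The nearest measured genes on either side, *Bcat2* (24.2 kb away) and *Rasip1* (12.0 kb away), had log2 ratios of -0.13 and 0.31.

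*Angptl4* encodes angiopoietin-like 4, an inhibitor of lipoprotein lipase that shifts plasma triglycerides away from adipose tissue in fasting. It had 5942 normalized reads in WT and 5041 in KO, a change of -15.2%, and lies at chr17:33773750-33781830 on the minus strand with 7 exons. The list of the PPARα program, to which *Fgf21* and *Angptl4* also belong, held 29 other genes. Of these, 19 had a higher KO value, while 57.5% of the 14106 genes had a lower one. The median log2 ratio of the list was 0.10, and 0 stood past 1.5-fold either way. The gene of the list with the most normalized reads was *Cyp4a10*, with 134128 in WT and 147932 in KO. It encodes a fatty acid hydroxylase and has near-identical copies that could share reads. *Ppara* had 3501 and 4872 (log2 ratio 0.48), and *Cpt1a*, which brings fatty acids into mitochondria, had a log2 ratio of 0.14. *Pdk4*, which spares glucose in fasting, was the 1 gene of the program with reads by library: 80.0, 25.0 and 53.8 normalized reads in WT, and 104, 78.2 and 46.3 in KO. Its groups overlapped, and the exact permutation p was 0.5.

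Among 13 angiopoietin-like genes and partners of lipases, 0 stood past 1.5-fold either way, with a median log2 ratio of -0.05. *Angptl8*, which the liver makes in the fed state and which was counted in another list, had 238 and 235 normalized reads. *Apoa5*, an activator of triglyceride clearance and the gene of this list with the most normalized reads, had 72993 in WT and 55861 in KO (log2 ratio -0.39). Per kilobase, *Apoc3* (71463) stood above *Apoa5* (27758). *Lpl*, the lipase that *Angptl4* inhibits, was weakly expressed, with 115 and 119.

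*Gdf15* encodes growth differentiation factor 15, a stress hormone that acts on the hindbrain receptor GFRAL and lowers appetite. It had 138 normalized reads in WT and 116 in KO, a change of -15.7%. The table left 51 possible sets of reads per library for this gene, so its spread could not be worked out. *Gdf15* lies at chr8:70629393-70632456 on the minus strand. Its nearest measured neighbours, *Lrrc25* and *Pgpep1*, had higher KO values, with log2 ratios of 0.20 and 0.17.

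In the integrated stress response list, which ATF4 heads, 1 of 25 measured genes stood past 1.5-fold higher and 1 lower, with a median log2 ratio of -0.06. The higher one was *Mthfd2*, a mitochondrial folate enzyme, at only 2.71 and 4.21 normalized reads. The lower one was *Asns*, asparagine synthetase, with genotype values of 55.2 and 30.7. By library *Asns* had 42.5, 47.8 and 84.4 normalized reads in WT and 17.5, 46.3 and 19.2 in KO. One KO library lay within the range of the WT libraries, the exact permutation p was 0.2 and the limma log2 difference was -1.12 with a standard error of 0.49 (adjusted p = 0.999). *Atf4* had 826 in WT and 872 in KO, and *Atf5*, the most abundant gene of the list, had 22750 and 15837 (log2 ratio -0.52).

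*Fst* encodes follistatin, a secreted protein that binds and neutralizes activins and that glucagon and low insulin induce in liver. It was the weakest of the 9 genes, with genotype values of 18.7 in WT and 17.3 in KO, and the only one of them with reads by library. The WT libraries held 26, 13 and 17 reads of *Fst*, or 21.2, 14.8 and 20.8 normalized reads. The KO libraries held 23, 22 and 11, or 17.5, 21.2 and 12.4 normalized reads. The 2 genotypes shared their highest value, 21.2, and the lowest library was a KO library, so the groups overlapped (plot of reads by library). The means were 18.9 ± 3.60 in WT and 17.1 ± 4.43 in KO (SD, n = 3 libraries). On log2(normalized reads + 1) KO minus WT was -0.16 with a standard error of 0.45 (limma adjusted p = 0.999), and the two-sided exact permutation p was 0.7. Without both libraries that stood apart the means were 17.8 in WT and 16.8 in KO, and leaving out the KO library with size factor 0.886 turned the difference to 0.0431. A change of *Fst* was thus not detected with these reads and 3 libraries per genotype. The gene lies at chr13:114452290-114458951 on the minus strand and overlaps *Gm47040*, whose reads cannot be told apart from those of *Fst* if the libraries were not stranded. Over the 6 libraries the genes with the pattern most like *Fst* were *Prox2* (Pearson r = 0.988), *Zfp275* (0.967) and *Atf3* (0.966), chosen as the 3 highest of 3307 genes. These values share their libraries and depth, and the likeness is given as a description.

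**Figure D3:**
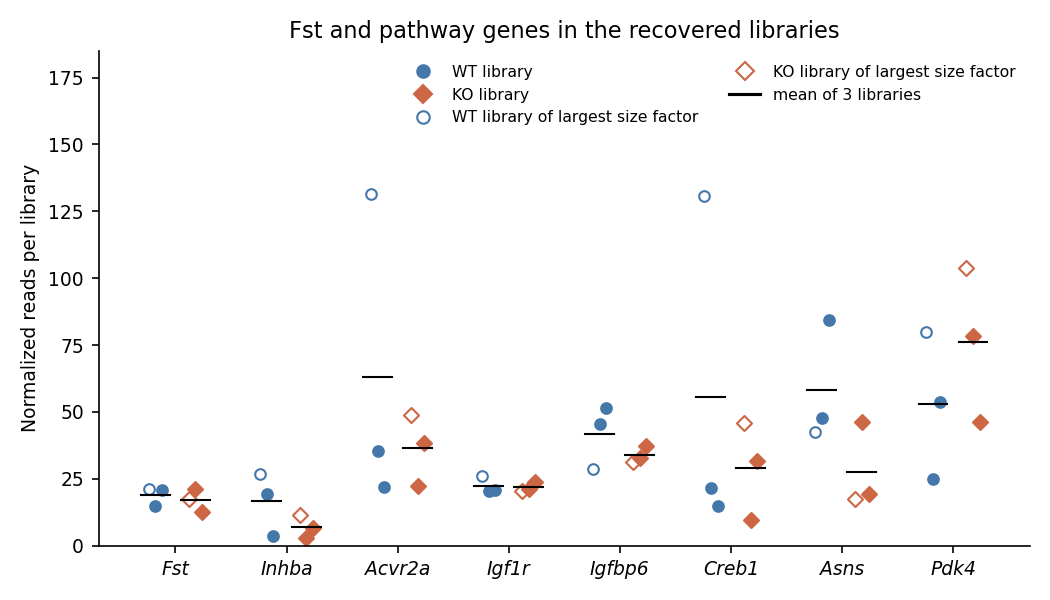
Normalized reads of *Fst* and 7 pathway genes in the 3 WT libraries (circles) and the 3 KO libraries (diamonds), with bars at the mean of 3 libraries and open symbols for the library of largest size factor in each genotype. The WT and KO points overlap for all 8 genes, and the open WT circles of *Acvr2a* (131) and *Creb1* (131) lie far above the other libraries.

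The activins that follistatin binds, the receptors that the 9 proteins meet and their co-receptors formed a list with 22 measured genes. Of these, 1 stood past 1.5-fold higher and 2 lower, and the median log2 ratio was -0.03. *Inhba*, which encodes the activin A subunit, had genotype values of 14.8 and 8.89, and its libraries overlapped, with 26.9, 19.3 and 3.67 normalized reads in WT and 11.4, 2.90 and 6.77 in KO. *Acvr2a*, an activin receptor, had 131, 35.3 and 22.0 in the WT libraries and 48.8, 22.2 and 38.4 in the KO libraries, so that 1 WT library carried the difference. The higher gene was *Fgfr3*, a receptor for FGFs, with 121 normalized reads in WT and 193 in KO. *Klb*, which encodes β-Klotho, had 485 and 535, and *Fgfr4*, the main FGF receptor of hepatocytes, had 798 and 774. *Inhbe* and *Inhbc*, the activin subunits that liver makes in quantity, had log2 ratios of -0.15 and 0.36. *Asgr1*, a hepatocyte lectin receptor and the most abundant gene of the list, had 11236 and 11139.

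*Ahsg* had 305064 normalized reads in WT and 253151 in KO, a change of -17.0% (log2 ratio -0.27). Fetuin-A carries calcium phosphate in plasma and inhibits the insulin receptor. *Fetub* had 21868 and 19520, a change of -10.7% (log2 ratio -0.16). Fetuin-B inhibits the zona pellucida protease ovastacin and is also described as a hepatokine. The fetuin genes sit next to each other at chr16:22891277-22899449 and chr16:22918334-22939778, both on the plus strand, in a stretch of 191 kb that also holds *Hrg*, *Kng2* and *Kng1*. These 3 relatives, which encode histidine-rich glycoprotein and the kininogens, had log2 ratios of -0.03, -0.10 and -0.05, so that all 5 genes of the cluster had a lower KO value and *Ahsg* the lowest ratio. *Ahsg* overlaps *Gm30505*. A lower KO value, as in all 5 genes of the cluster, was found in 57.5% of the 14106 genes. In the list of cystatin-type proteins, kininogens and partners, all 9 measured genes had a lower KO value, 0 stood past 1.5-fold and the median log2 ratio was -0.07. The most abundant gene of this list was *Gc*, vitamin D binding protein, with 85192 in WT and 81078 in KO. The list also holds *Hrg*, *Kng2* and *Kng1* of the cluster, and *Mep1b* at only 1.72 and 1.71 normalized reads. *Itih1* and *Itih2* were counted in it, with log2 ratios of -0.12 and -0.03. *Itih3* and *Itih4* were counted in another list and had higher KO values, with log2 ratios of 0.07 and 0.18.

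*Lect2* encodes leukocyte cell-derived chemotaxin 2, a hepatokine linked to insulin resistance of muscle. It had 822 normalized reads in WT and 771 in KO, a change of -6.15%, with the ratio nearest 0 among the 9 genes (-0.09). The gene lies at chr13:56542464-56548502 on the minus strand, and no gene overlaps it. Its nearest measured neighbours, *Slc25a48* and *Tgfbi*, had log2 ratios of 0.15 and 0.14. Over the 16 nearest measured genes on either side of the 9, the median log2 ratio was -0.07, and 10 had a lower KO value. That direction was found in 57.5% of the 14106 genes.

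Other hepatokines and carriers that the liver secretes gave the widest range of log2 ratios of the lists, from -0.56 to 1.43, the upper end of which was *Lcn2* alone (plot of lists). Of 45 measured genes, 4 stood past 1.5-fold higher and 0 lower, and the median log2 ratio was -0.00489. *Lcn2*, the acute phase protein lipocalin 2, had 147 normalized reads in WT and 396 in KO (log2 ratio 1.43). *Gpnmb* and *Cfd* were also past 1.5-fold, with genotype values of 9.50 and 15.7 for *Gpnmb* and of 42.1 and 68.0 for *Cfd*, and *Retnlg* had 2.33 and 3.54. The libraries of *Cfd* overlapped widely, with 4.08, 52.3 and 17.1 normalized reads in WT and 197, 48.3 and 11.3 in KO, and those of *Gpnmb* with 2.45, 12.5 and 8.56 in WT and 29.7, 7.72 and 14.7 in KO. For both genes the KO library of largest size factor was the highest. *Cfd* was also counted among the adipocyte markers, of which all 7 measured genes were higher in KO. *Alb*, which encodes albumin, the most abundant protein of plasma, had a log2 ratio of 0.00328.

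The disulfide isomerases of the secretory pathway are the family of *Txndc5* and act on disulfide-bonded proteins such as the fetuins and follistatin. Their list also holds chaperones and other folding factors outside that family. Without *Txndc5*, 19 genes of the list were measured, 0 stood past 1.5-fold either way and the median log2 ratio was -0.04. *P4hb*, the prototype isomerase and the most abundant of the list, had 26701 normalized reads in WT and 28750 in KO. *Hsp90b1*, an endoplasmic reticulum chaperone, had the lowest ratio, with 4609 and 3112 (log2 ratio -0.57). *Hspa5*, the chaperone BiP, had 5430 and 5199.

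**Figure D4:**
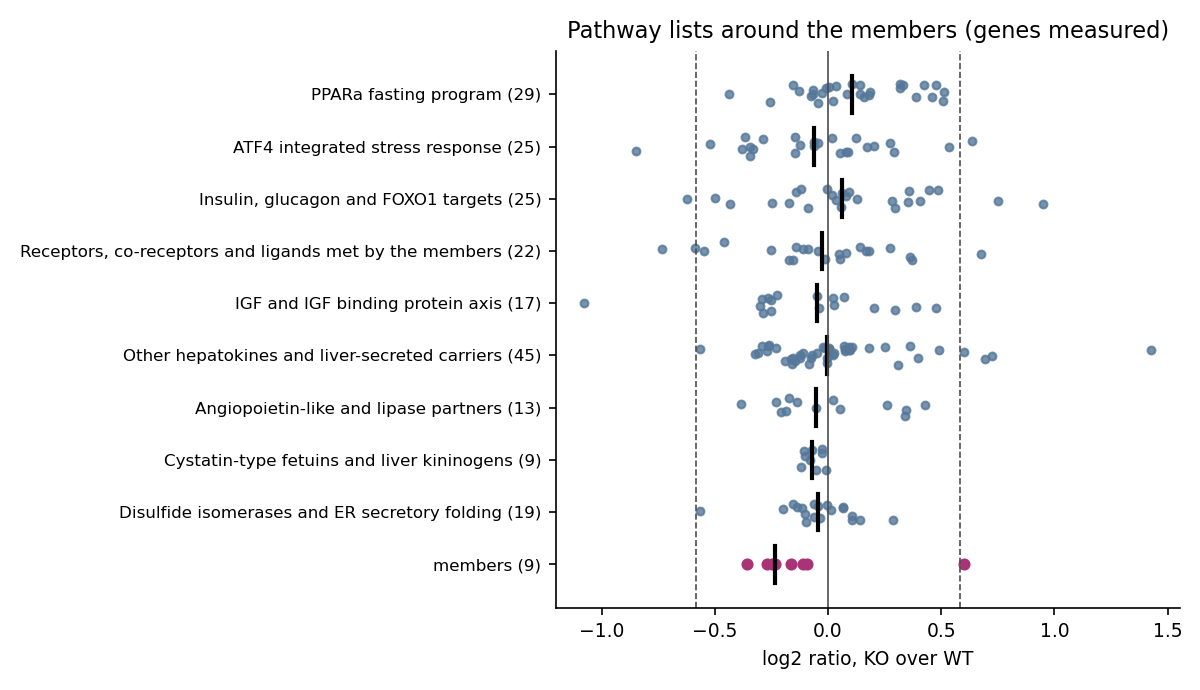
The log2 ratios of KO over WT of the measured genes of 9 pathway lists (points, number of genes in parentheses, vertical jitter without meaning) and of the 9 genes described here (bottom row), with black bars at the medians and dashed lines at 1.5-fold. The median of the 9 genes (-0.23) lies to the left of those of all 9 lists, which run from -0.07 to 0.10.

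Over the 9 lists together, 195 genes were measured, 8 stood past 1.5-fold higher and 5 lower, and the median log2 ratio was -0.01. The shares over all 14106 genes were 2.01% higher and 5.92% lower. Reads by library were recovered for 24 of them with sums of at least 60 normalized reads. The WT and KO libraries overlapped in each of these 24 genes. Over all 3307 recovered genes, libraries without overlap were also rare, with 3.08% higher and 2.63% lower in KO. limma found 0 of 3307 recovered genes (0%) with an adjusted p under 0.05 and 54 with an unadjusted p under 0.05. In simulated reads with the same means, limma called 198 of 200 genes with a 4-fold change. The spread of those reads was a fixed setting, not taken from these libraries. The simulation therefore does not give the size of change detectable here, and differences of that size or smaller may have been missed.

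The hepatocyte markers were high in both genotypes, and 0 of 10 stood past 1.5-fold, with summed values of 2609310 normalized reads in WT and 2431540 in KO, a change of -6.81%. The sum is weighted to the most abundant genes. Of the 10 markers, 6 had a lower KO value, among them *Apoa1* with 667133 in WT and 505509 in KO, while *Alb* had a log2 ratio of 0.00328. In bulk liver, fewer cells of a type cannot be told apart from less RNA per cell. Red cell markers were higher in KO in all 8 measured genes, 4 of them past 1.5-fold, and their summed value was 118836 in WT and 180443 in KO. Adipocyte markers were also higher in all 7 measured genes, 4 past 1.5-fold, with sums of 93.2 and 141. Exocrine pancreas markers were higher in KO in all 7 measured genes as well, 3 past 1.5-fold, with sums of 121 and 137 that were mostly *Cela1* (88.1 and 93.4). Of 11 Kupffer cell markers, 1 stood past 1.5-fold higher, and their sum was 5621 in WT and 6259 in KO. Of 12 stellate cell markers, 1 stood past 1.5-fold higher and 1 lower, with sums of 7977 and 7148. Among sinusoidal endothelium and cholangiocyte markers, 0 of 10 and 0 of 6 stood past 1.5-fold. Of 10 lymphocyte markers, 8 had a lower KO value and 1 stood past 1.5-fold lower, with sums of 116 and 89.4. A lower KO value was found in 57.5% of the 14106 genes. The part of these cell types in the values of *Igfbp1*, *Lcn2* and *Cfd* was not tested.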

How the data were processed

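RNA of liver pools was sequenced by the service of the authors, and GEO's processing notes name mm10, HISAT2, Bowtie2 and RSEM, among other tools, without versions. The 9 genes and the lists were chosen with earlier results of these data known. For 16123 genes the authors deposited 1 signal for WT and 1 for KO, which are reads divided by size factors. These were combined over 3 libraries by the authors' own comparison of the genotypes, whose p-values were left out. The log2 ratios of the signals match the log2 fold changes that the study printed for *Txndc5* (-4.89), *Lcn2* (1.43) and *Slc4a1* (1.47). The log2 ratios used here are therefore not independent of that comparison. For each library the authors deposited the percent of mapped reads and of ribosomal RNA (0.26% to 0.69%), and the numbers of raw and clean reads. Splicing tables were not used here. The transcript length of each gene deposited by the authors gave values per kilobase.

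The design had allowed for counts per library. With 1 value per genotype, log2 ratios were taken without pseudocount and without a test, over genes averaging 1 normalized read or more. Where the sum of normalized reads was at most 400, reads per library were recovered: 1 read's worth is the value that 20 genes or more with a single read share, and sets of whole reads that met the sum within 2.5 times the rounding were enumerated. Of 8081 genes, 8061 (99.8%) left a single set, and in simulated data 382 of 382 were right. Recovered libraries carry a genotype but no pool number, and hold 84664 to 196805 recovered reads each, so counting error is large for weak genes. limma 3.58.1 (R 4.3.3, trend, Benjamini-Hochberg) compared log2(normalized reads + 1) over genes with a sum of at least 60, and scipy 1.17.1 gave two-sided exact permutation tests. Pools are separate RNA mixtures of one colony, and p-values measure the spread between them. In each list, genes past 1.5-fold with a mean value of at least 10 were named, up to 5 by size, with the most abundant gene. Most abundant here means the most normalized reads, whatever the transcript length. Others were named for their role, after values were seen. The lists leave out 3 genes that are not reported here. The motifs were chosen after the promoters were seen. Positions come from GENCODE M21 on GRCm38, and promoters from RefSeq on GRCm38.p6.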

Additional observations from a re-analysis of the deposited data

How the results depend on the processing

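A pseudocount of 1 and centring on the median of all genes left direction and side as they were for 18 of 18 values, which moved by at most 0.05 on the log2 scale. With a 2-fold mark in place of 1.5-fold, 0 of the 9 genes stood past it, because the value of *Igfbp1* is 1.52-fold. The difference of *Fst* ranged from -0.32 to 0.0431 when each library was left out in turn, and the positive value came without the KO library with size factor 0.886. A pseudocount of 0.5 and leaving out both libraries that stood apart, the latter chosen after seeing the data, kept the sign (-0.10 for the latter). limma found 0 genes with an adjusted p under 0.05 under every alternative run, while the number with an unadjusted p under 0.05 ran from 21 to 169 with 1 library left out and was 154 without both. The counts of list genes past 1.5-fold stayed within 1.5 times under a mean value of at least 10 and no filter, and centring left 3 lower genes in place of 5. No paired analysis was possible because the groups share fewer than 2 replicate numbers and the recovered libraries carry none. For *Fst* the standard error was larger than the difference, and for the other 8 genes the single value per genotype leaves the spread between pools unknown.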
